A study of Homo sapiens with 24 samples.

Results

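RNA of the soluble cytoplasm was compared between U2OS cells given RK-33 and U2OS control cells (Ctrl). U2OS is a human osteosarcoma line. The 6 libraries were taken by their labels, 3 of RK-33 and 3 of Ctrl, out of 24 in the series, which also holds the insoluble fraction and cells given sodium arsenite (NaAsO2) with or without RK-33 (Combo). RK-33 cells received 6 µM RK-33 from a DMSO stock, with a 1 h pre-treatment, and Ctrl cells received 0.12% DMSO for 2 h to match it. Neither group received NaAsO2. Cells of the NaAsO2 and Combo groups received 500 µM NaAsO2 for 60 min, in Combo after the RK-33 pre-treatment. After nuclei were spun out, the supernatant of a 10000 g spin was the soluble fraction and its pellet the insoluble fraction, which is enriched for stress granules and P-bodies. The cells are 1 line, and per the study's methods the experiment was carried out anew for each of the 3 replicates. The p-values of edgeR therefore rest on the spread between repeats in this line, pooled over all 24 libraries and not taken from the 6 compared alone. RNA was rRNA-depleted, and a level is the share of a library's counts, so by it more RNA of a gene in the fraction and less of all other RNA cannot be told apart. The study added spike-in RNA to each library, and this was not used for scaling here.

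As background, DDX3 is a DEAD-box RNA helicase that unwinds structured RNA during translation and is found in stress granules, and RK-33 binds its ATP site and inhibits it. The heat shock response is driven by the transcription factor HSF1, which raises chaperone genes when unfolded protein accumulates. Immediate early genes such as FOS and EGR1 are transcribed within minutes of growth factor or stress signals, without new protein being made. Messenger RNAs of secreted and membrane proteins are translated at the endoplasmic reticulum (ER), where the nascent chain is threaded into the membrane.

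The 6 libraries held 11032305 to 16768928 exon plus intron counts. RK-33 replicate 3 stood apart from the other RK-33 libraries. The chi-square per degree of freedom between its counts and theirs was 32.4 and 23.1, against 4.13 between the other RK-33 libraries and 2.91 to 7.01 among Ctrl libraries. Its intron share was 13.3%, and the signal recognition particle RNA RN7SL1 took 15.5% of its exon counts against 7.51 to 9.29% in the other 5. Where a named gene loses its adjusted p of RK-33 against Ctrl without it, or a list's count moves, the value without it is given. The differences from the Ctrl mean also followed exon GC content (Spearman's rho over 17666 genes) in RK-33 replicates 1 to 3, at 0.15, 0.33 and 0.51, and in Ctrl libraries at -0.08 to 0.12. The targeted protein was inhibited, not its RNA, and DDX3X was at 412, 448 and 463 CPM in Ctrl and 405, 379 and 323 CPM in RK-33 (log2 fold change -0.26 ± 0.20 (SE), adjusted p = 0.565), which does not check the label. Of 10 osteoblast lineage markers 6 averaged at least 1 CPM, among them the transcription factor RUNX2, whereas COL1A2, BGLAP, IBSP and SP7 stayed under 1 CPM. Of markers of other lineages, 4 neural ones summed to 75.5 to 78.8 CPM in Ctrl and 63.8 to 86.4 CPM in RK-33, 6 epithelial ones to at most 25.2 CPM and 4 hepatocyte ones to at most 0.495 CPM. Endothelial markers (4) summed to 5.43 to 6.32 CPM in Ctrl and 7.54 to 8.32 CPM in RK-33, and blood markers (5, of which 2 had no count) to 1.86 to 2.39 CPM and 0.808 to 1.26 CPM. Mesenchymal markers (5) summed to 1143 to 1350 CPM in Ctrl and 1070 to 1137 CPM in RK-33. The groups did not overlap for the endothelial, blood and mesenchymal sums, whose part in the results was not tested. Summed nuclear RNAs (MALAT1, NEAT1, KCNQ1OT1, RNU4ATAC and SNORD3A) were at 11199.7 to 15749 CPM in Ctrl and 8244 to 12833 CPM in RK-33.

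In the soluble fraction, 19 of 22 heat shock genes and 24 of 40 immediate early genes tested rose with RK-33, while 20 of 59 genes of ER translocation and early secretory transport and 13 of 26 genes of lysosomal proteins fell. Of 17666 genes tested with edgeR's quasi-likelihood test, 369 rose (2.09%) and 572 fell (3.24%) at a Benjamini-Hochberg adjusted p under 0.05. These are the genes meant by rose and fell throughout. With a 2-fold limit added, 91 genes (0.515%) were called, 50 higher (0.283%) and 41 lower (0.232%), a split that was 41 and 62 with library size alone in place of TMM factors. For all 91 the RK-33 and Ctrl libraries did not overlap, which also held for 5674 (32.1%) of the genes tested. At an unadjusted p under 0.05 there were 3109 genes. Leaving out 1 of the 6 libraries gave 146 to 305 genes that rose and 260 to 443 that fell, with the highest counts without RK-33 replicate 1. With the 6 libraries fitted alone, 1231 genes passed the adjusted p as higher and 1203 as lower. With the 12 soluble libraries fitted alone, 1679 and 1785 did, so these counts depend on which libraries are fitted together. Without RK-33 replicate 3, 44 genes were called, 30 higher and 14 lower, and 28 and 9 of them were among the 50 and 41. With the GC trend of each library removed, 94 genes were called, among them 36 of the 50 and 24 of the 41, and 49 and 41 of these passed the adjusted p without the 2-fold limit. Of the 50 genes called higher, 24 were in lists of heat shock, immediate early, ATF4, p53 or NF-kB genes. In that order these lists held 22, 40, 22, 25 and 16 of the 17666 genes tested. The lists were chosen with earlier results of these data known, so the count is a description.

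**Figure D1:**
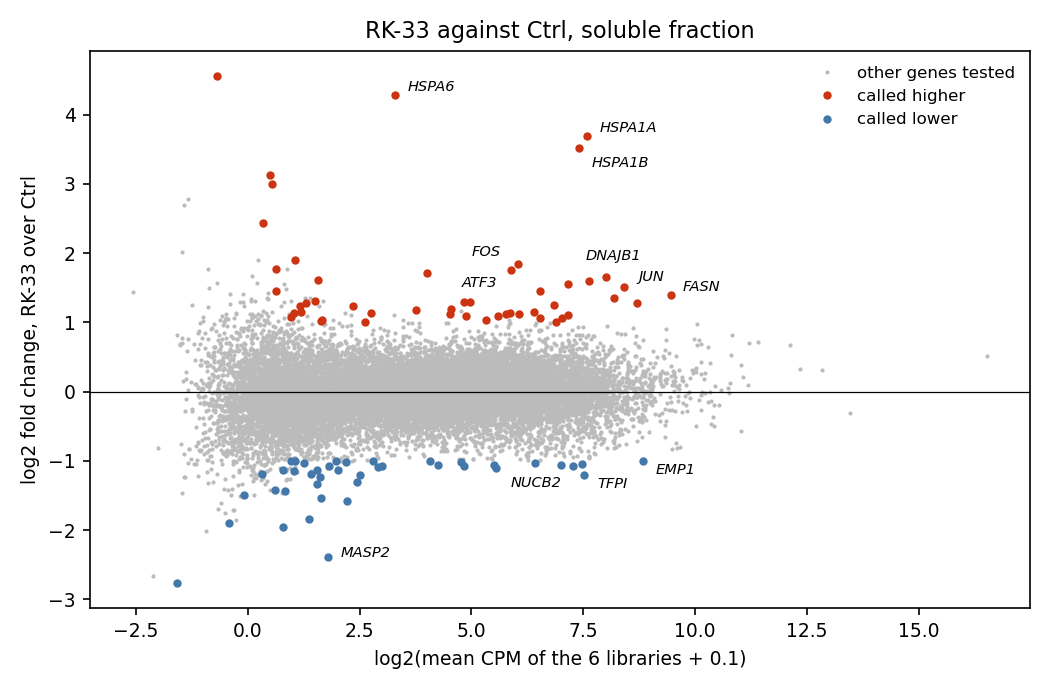
Each point is a gene of the exon table, with its mean level over the 6 libraries on the x axis (log2 of CPM + 0.1) and its log2 fold change, RK-33 over Ctrl, on the y axis. HSPA6, HSPA1A and HSPA1B lie above 3.5, as does the low pseudogene RN7SL472P at 4.56, and the 41 genes called lower reach -2.76.

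Heat shock genes were among those with the largest rises. HSPA6 (chr1:161524540-161526894), a stress-inducible HSP70 that is hardly expressed in unstressed cells, was at 0.745, 1.104 and 0.963 CPM in the Ctrl libraries and 14.4, 16.1 and 24.97 CPM in the RK-33 libraries. It was 19.5-fold higher (log2 fold change 4.28 ± 0.36 (SE), adjusted p = 1.20e-07). HSPA1A (chr6:31815543-31817946), the main inducible HSP70, was at 27.3, 30.6 and 24.9 CPM in Ctrl and 298, 346 and 430.5 CPM in RK-33, a 12.96-fold rise (log2 fold change 3.70 ± 0.22 (SE), adjusted p = 4.87e-10). The groups were far apart for both genes, and RK-33 replicate 3 was the highest library. HSPA1B (chr6:31827738-31830254) encodes the same protein from a near-identical copy, so fragments can be split between HSPA1A and HSPA1B and their separate values are uncertain. Its levels were 25.3, 30.8 and 25.3 CPM in Ctrl and 256, 295 and 381 CPM in RK-33 (log2 fold change 3.52 ± 0.25 (SE), adjusted p = 6.35e-09). DNAJB1 (chr19:14514769-14560391), the HSP40 that hands clients to HSP70, rose from 108, 138 and 125 CPM to 321, 387 and 469.5 CPM (log2 fold change 1.66 ± 0.15 (SE), adjusted p = 3.49e-07). CHORDC1 (chr11:90200429-90223077), an HSP90 co-chaperone, went from 69.8, 65.6 and 69.4 CPM to 190.4, 166 and 130.0 CPM (log2 fold change 1.25 ± 0.19 (SE), adjusted p = 3.08e-04), and here RK-33 replicate 3 was the lowest RK-33 library. The locus of DNAJB1 overlaps TECR on the other strand. BAG3, which couples HSP70 to autophagy, went from 40.8, 42.2 and 42.6 CPM to 80.5, 95.5 and 96.9 CPM (log2 fold change 1.12 ± 0.11 (SE), adjusted p = 1.79e-06).

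Of 22 heat shock genes tested, 19 rose, 0 fell and 3 did not pass, with a median log2 fold change of 0.68 against -0.01 over all genes. Leaving out 1 library gave 11 to 18 that rose, with 11 without Ctrl replicate 1 and 12 without RK-33 replicate 3. Of the 22, 7 were called: HSPA1A, HSPA1B, HSPA6, DNAJB1, BAG3, DNAJA4 and CHORDC1. With the GC trend removed 20 rose. The abundant constitutive chaperones moved less. HSPA8, the constitutive HSP70, went from 733, 893 and 832 CPM to 1238, 1281 and 1388 CPM (log2 fold change 0.67, adjusted p = 0.00751), and HSP90AB1, the constitutive HSP90, from 1259, 1604 and 1496 CPM to 1889.5, 2118 and 2279 CPM, at 0.53 with an adjusted p of 0.0126. Without Ctrl replicate 1 the adjusted p of HSPA8 was 0.0622 and that of HSP90AB1 0.111, and that of HSP90AB1 was 0.0789 without RK-33 replicate 3. HSPH1, an exchange factor of HSP70, was at log2 fold change 0.82 (adjusted p = 2.02e-05) and STIP1, which bridges HSP70 and HSP90, at 0.76 (adjusted p = 1.69e-04). HSPA1L, a related HSP70 encoded next to HSPA1A, was called at 1.61 (adjusted p = 1.05e-04) from a mean of 1.42 CPM in Ctrl to 4.37 CPM in RK-33. The 3 genes that did not pass were DNAJB4, HSPB8, at 0.37 (adjusted p = 0.201), and HSPA4, at 0.03 (adjusted p = 0.931).

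**Figure D2:**
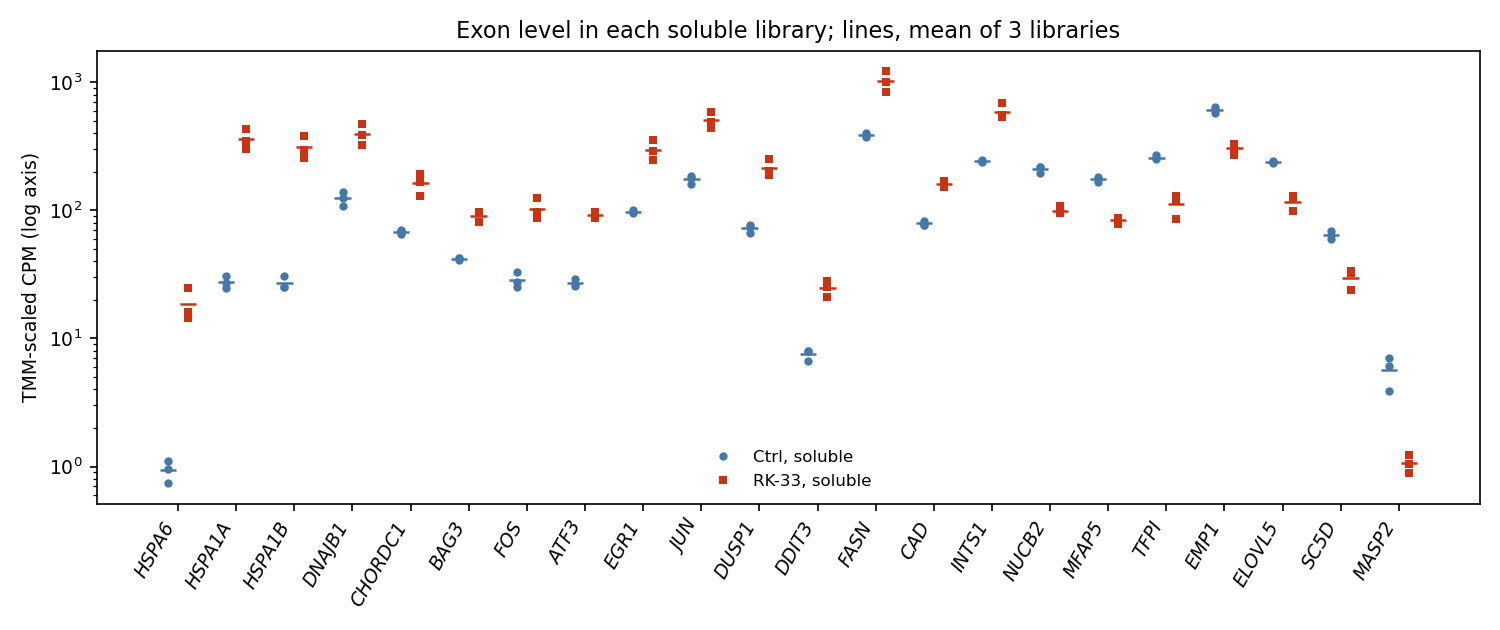
TMM-scaled CPM (log axis) of 22 genes in each Ctrl (circles) and RK-33 (squares) library of the soluble fraction, with lines at the means of 3 libraries. The groups do not overlap for any of the 22 genes. All 22 are called genes, for none of which the groups overlap, and this also holds for 32.1% of all genes tested.

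HSF1 binds inverted repeats of GAA, so the promoters of the heat shock genes were searched for the pairs GAANNTTC and TTCNNGAA, in 300 bases from 250 before to 50 after the RefSeq transcription start (GRCh38.p14). Both pairs read the same on either strand. At least 1 pair was in 8 of 20 heat shock promoters (40%), in 9 of 34 promoters of genes called higher (26.5%), in 4 of 26 called lower (15.4%) and in 10.2% of 11789 promoters of all genes tested. The larger sets were near that share, with a pair in 32 of 287 promoters of genes that rose (11.1%) and 44 of 424 that fell (10.4%). The heat shock list and the genes called higher have members in common, so their shares are not separate results. A longer run, GAANNTTC followed by NNGAA, which contains both pairs, was in 4 of 20 heat shock promoters and in 0.331% of all. TATAAA was in 10 of 34 promoters of genes called higher (29.4%), in 0 of 26 called lower and in 6.48% of all. It was in 8.36% of promoters of genes that rose and 3.54% of those that fell. The other motifs were compared in the same way between promoters of genes called higher and all promoters. GCGTG was in 50% against 49.4%, CACGTG in 11.8% against 9.51%, TGACGTCA in 5.88% against 3.21%, and TGACNNNGC in 8.82% against 15.05%. CACGTG, TGACGTCA and both heat shock pairs are their own reverse complement, and the others were read on both strands. These are descriptions of letters, with no test. The 150 bases before the start are shown with each pair, or run of overlapping pairs, in capitals, for HSPA6, HSPA1A and HSPA1B, which hold the largest rises of the list, and for CHORDC1 and HSPA8, which rose less and hold more than 1 pair.
HSPA6 (chr1:161524390-161524539, plus strand): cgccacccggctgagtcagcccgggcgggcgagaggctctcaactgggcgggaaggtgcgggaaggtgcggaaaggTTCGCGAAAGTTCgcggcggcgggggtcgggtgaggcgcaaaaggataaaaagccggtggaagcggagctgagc
HSPA1A (chr6:31815393-31815542, plus strand): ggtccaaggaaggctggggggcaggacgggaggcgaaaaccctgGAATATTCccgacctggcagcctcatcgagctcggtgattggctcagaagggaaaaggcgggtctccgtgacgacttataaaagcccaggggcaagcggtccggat
HSPA1B (chr6:31827588-31827737, plus strand): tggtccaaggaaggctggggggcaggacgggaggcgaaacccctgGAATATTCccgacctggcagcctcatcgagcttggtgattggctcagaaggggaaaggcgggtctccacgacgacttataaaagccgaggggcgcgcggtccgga
CHORDC1 (chr11:90223050-90223199, minus strand): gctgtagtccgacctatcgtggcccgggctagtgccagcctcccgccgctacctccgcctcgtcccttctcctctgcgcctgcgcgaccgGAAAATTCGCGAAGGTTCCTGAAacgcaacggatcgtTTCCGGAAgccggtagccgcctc
HSPA8 (chr11:123062137-123062286, minus strand): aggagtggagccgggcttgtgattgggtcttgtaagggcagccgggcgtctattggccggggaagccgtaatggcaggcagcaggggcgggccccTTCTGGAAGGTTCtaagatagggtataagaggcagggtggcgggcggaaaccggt

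The printed windows held 2 pairs for HSPA6, 5 for CHORDC1, 2 for HSPA8 and 1 each for HSPA1A and HSPA1B, whose windows are nearly the same sequence.

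The introns of the heat shock genes had larger log2 fold changes than their exons, a difference that was not tested itself. Introns of 14 of the 22 heat shock genes could be tested, and 13 rose, with a median log2 fold change of 2.03 against 0.64 for the exons of the same genes and -0.03 over all introns tested. HSPH1 introns went from 26.2, 30.9 and 22.8 CPM in Ctrl to 259, 270.0 and 261 CPM in RK-33, a log2 fold change of 3.31 (adjusted p = 8.12e-14). BAG3 introns went from 43.4, 33.1 and 29.7 CPM to 239, 258 and 267 CPM, at 2.84 (adjusted p = 2.89e-12). The RK-33 libraries lay close together and far above Ctrl for both. CHORDC1 introns were at 2.84 (adjusted p = 2.73e-10), those of DNAJA4 at 2.43 (adjusted p = 1.52e-11) and those of HSP90AB1 at 2.01 (adjusted p = 2.59e-11). For HSPA4, whose exons did not pass, introns were at 1.04 (adjusted p = 0.00407), and for HSPB8 at 1.19 (adjusted p = 3.81e-06). The exception was CRYAB, at 0.42 (adjusted p = 0.689). Without RK-33 replicate 3 the same number, 13, rose, and 12 did when introns were scaled by the exon table. Intron reads can come from unspliced pre-mRNA, retained introns or released introns, which these counts do not tell apart. The nuclear RNAs MALAT1 and NEAT1 were at log2 fold changes of -0.31 and 0.01 and did not pass.

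**Figure D3:**
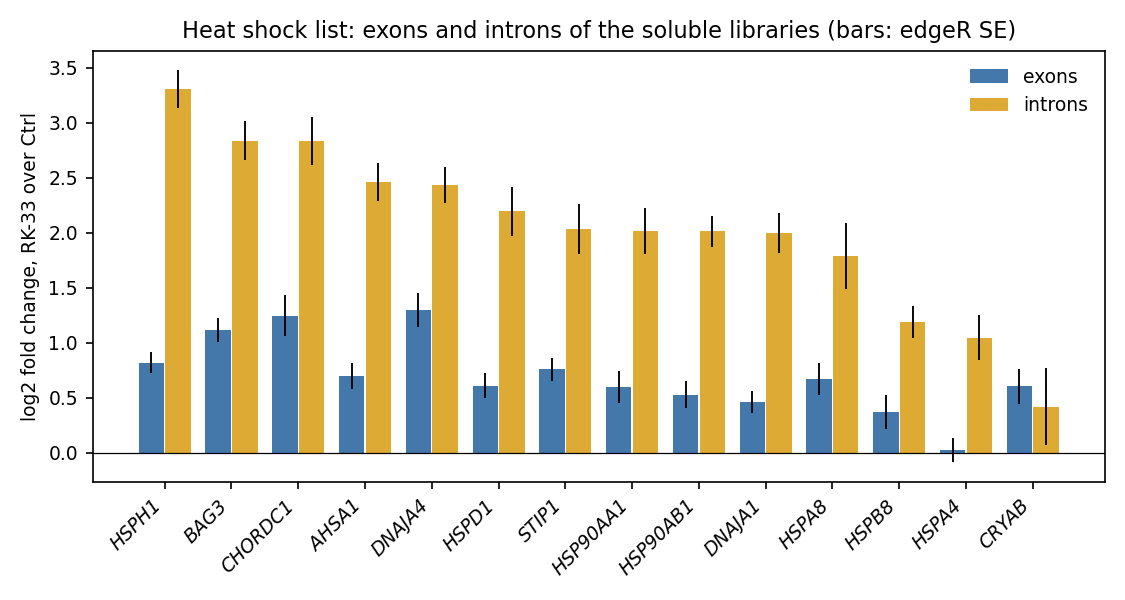
log2 fold change, RK-33 over Ctrl, of the exons and the introns of 14 heat shock genes in the soluble fraction, with bars for the SE derived from edgeR's test statistic. Intron bars are higher than exon bars for every gene but CRYAB, and HSPH1 reaches 3.31.

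Over all genes, introns of 17406 genes were tested, and 108 were called higher (0.62%) and 8 lower (0.046%). With the factors of the exon table, 47 were called higher and 2 lower, and 70 introns were called without Ctrl replicate 3 against 116 with all libraries. HSPH1, ATF3 and BAG3 had the smallest adjusted p. The introns of ATF3, a stress-induced transcription factor, went from 34.95, 39.03 and 38.7 CPM to 204, 246 and 275 CPM, at 2.69 (adjusted p = 2.89e-12). Introns of DNAJB6, an HSP40, were at 1.92 (adjusted p = 1.44e-09), and those of TCP1, a subunit of the chaperonin CCT, at 1.72 (adjusted p = 4.88e-09) while TCP1 exons were at 0.26 (adjusted p = 0.360). CLU, a secreted chaperone, had introns at 1.63 (adjusted p = 1.77e-07) and exons at -0.20 (adjusted p = 0.446). The introns called lower with the smallest adjusted p at 10 CPM or more were those of SKP2, a subunit of a ubiquitin ligase of the cell cycle, at -1.3 (adjusted p = 3.41e-04), VWF, at -1.06 (adjusted p = 0.00804), and TMEM14A, at -1.01 (adjusted p = 0.0126). SKP2 introns went from 36.8, 46.1 and 36.9 CPM to 18.4, 12.7 and 17.6 CPM, without overlap. Of the 41 genes called lower by exons, introns of 30 could be tested and 0 fell, with a median of -0.33 against -1.07 for their exons. Of the genes called higher, introns of 28 could be tested and 13 rose.

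Immediate early genes were the largest group called higher. Of 40 tested, 24 rose and 0 fell, with a median log2 fold change of 0.64, and 11 were called: ATF3, FOS, EGR1, KLF6, HES1, DUSP1, IER2, JUN, JUNB, EGR2 and DUSP2. With the GC trend removed 26 rose, and with 1 library left out 15 to 22 rose, fewest without RK-33 replicate 3. ATF3 (chr1:212565334-212620777) was at 25.7, 29.1 and 26.7 CPM in Ctrl and 90.7, 87.6 and 97.1 CPM in RK-33 (log2 fold change 1.76 ± 0.11 (SE), adjusted p = 4.87e-10). FOS (chr14:75278826-75282230), which pairs with JUN in the factor AP-1, was at 27.7, 32.9 and 25.4 CPM and 86.9, 97.5 and 124 CPM (log2 fold change 1.84 ± 0.14 (SE), adjusted p = 2.37e-08). JUN itself went from 187, 161 and 180.2 CPM to 435, 486 and 587 CPM (log2 fold change 1.51 ± 0.23 (SE), adjusted p = 3.16e-04). EGR1 (chr5:138465479-138469303), a zinc finger factor induced by serum, went from 95.5, 100.1 and 97.4 CPM to 248, 292 and 352 CPM (log2 fold change 1.6 ± 0.16 (SE), adjusted p = 2.21e-06). In each of these the Ctrl libraries lay close together and every RK-33 library lay above them. DUSP1, a phosphatase that turns off MAP kinases, went from 77.4, 66.2 and 74.5 CPM to 201, 189.7 and 253 CPM (log2 fold change 1.56 ± 0.22 (SE), adjusted p = 1.80e-04). The related DUSP2 was at 1.46 (adjusted p = 0.00827), but without RK-33 replicate 3 its adjusted p was 0.0603. MYC was just under the 2-fold limit, at 0.93 (adjusted p = 2.52e-06), and KLF6 and HES1 past it, at 1.10 (adjusted p = 1.10e-05) and 1.29 (adjusted p = 1.30e-05). MCL1, a survival factor with a short-lived mRNA, was at 0.64 (adjusted p = 0.0262), or 0.147 without RK-33 replicate 3. The introns of 30 of these genes could be tested and 9 rose, or 4 when scaled by the exon table.

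The CArG box, bound by serum response factor, was in 1 of 28 immediate early promoters and in 1.08% of all those tested, with TATAAA in 8 of 28. EGR1 was the 1 gene with it, and its 150 bases before the start are given with both matches in capitals because EGR1 is among the genes with the largest rise on this list.
EGR1 (chr5:138465329-138465478, plus strand): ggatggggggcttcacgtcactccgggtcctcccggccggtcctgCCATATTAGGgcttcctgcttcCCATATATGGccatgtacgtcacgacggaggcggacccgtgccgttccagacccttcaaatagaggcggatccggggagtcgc

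Smaller stress lists had fewer members that passed. Among targets of ATF4, the factor of the integrated stress response, 5 rose and 1 fell of 22 tested, or 3 and 0 without RK-33 replicate 3. DDIT3 (chr12:57516588-57521737), the proapoptotic factor CHOP, went from 7.91, 8.01 and 6.64 CPM to 21.1, 25.03 and 27.9 CPM (log2 fold change 1.71 ± 0.18 (SE), adjusted p = 4.78e-06), and its locus overlaps MARS1 on the other strand and holds the microRNA gene MIR616, which was called as well (log2 fold change 1.91, adjusted p = 0.0183, or 0.0551 without RK-33 replicate 3). PPP1R15A, which recruits the phosphatase that restores translation, was at 1.06 (adjusted p = 0.00603) and DDIT4, an inhibitor of mTORC1, at 1.09 (adjusted p = 0.0152), or 0.0984 without RK-33 replicate 3. SLC7A11, the cystine transporter, fell by 0.81 (log2, adjusted p = 0.00838), or 0.0712 without that library. Among p53 targets 5 rose and 0 fell of 25 tested, and with 1 library left out 0 to 2 rose, the lowest being without RK-33 replicate 3. GADD45A, a p53 and stress gene of DNA repair, was the 1 called, at 1.06 (adjusted p = 0.00828), or 0.0750 without that library. Among NF-kB feedback genes and cytokines 3 rose and 0 fell of 16 tested, or 2 and 0 without that library. TNFAIP3, a deubiquitinase that limits NF-kB, went from 13.8, 14.1 and 14.8 CPM to 35.6, 30.7 and 31.5 CPM (log2 fold change 1.2 ± 0.15 (SE), adjusted p = 5.74e-05), and NFKBIZ from 34.2, 26.04 and 31.8 CPM to 67.5, 65.2 and 63.9 CPM (log2 fold change 1.10 ± 0.19 (SE), adjusted p = 0.00108). Counts of the other stress lists were low. Of NRF2 targets 1 rose and 1 fell of 20 tested, of hypoxia targets 0 rose and 2 fell of 17 tested, of interferon response genes 2 rose and 0 fell of 17 tested, and of the ER chaperones and unfolded protein response genes 0 rose and 2 fell of 20 tested. Without RK-33 replicate 3 these counts dropped to 0 and 0 for NRF2, 0 and 0 for hypoxia, 1 and 0 for interferon response and 0 and 1 for ER chaperones.

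**Figure D4:**
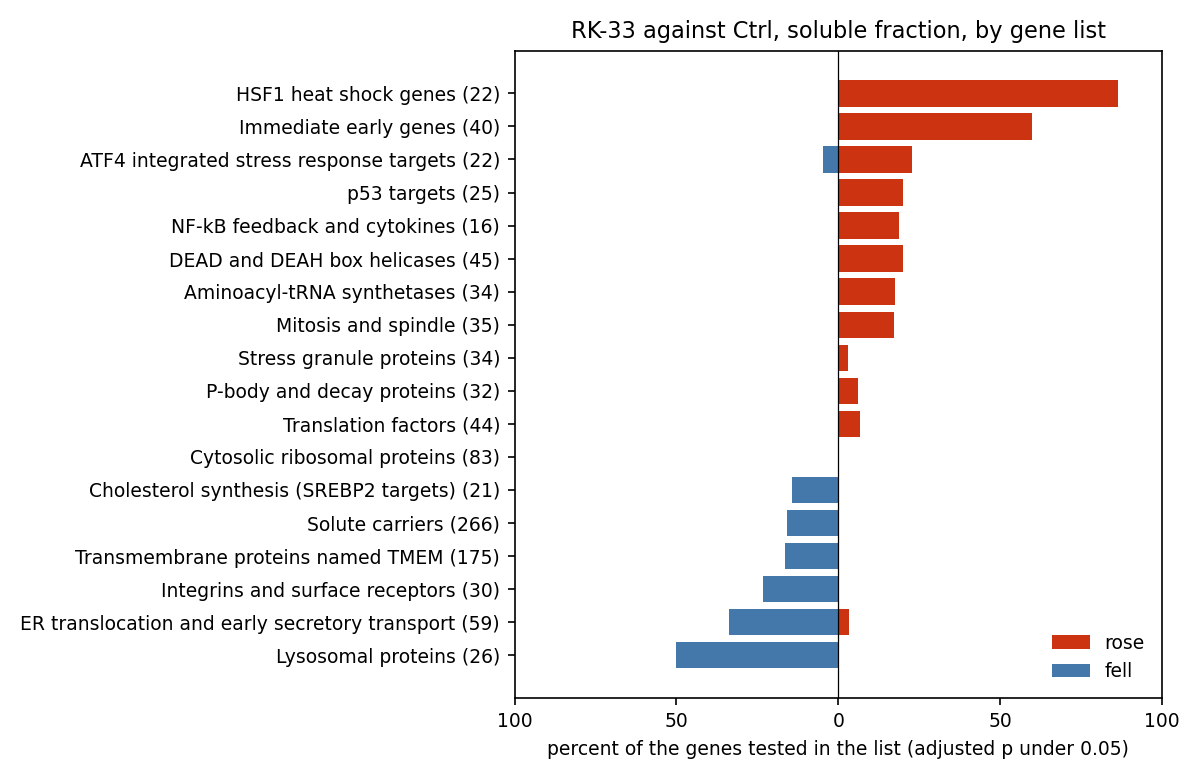
Percent of the tested genes of 18 lists that rose (right) or fell (left) in RK-33 soluble libraries at an adjusted p under 0.05, with the number tested in brackets. The heat shock and immediate early lists reach furthest right and the lysosomal list furthest left.

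FASN, INTS1, CAD and SCRIB, picked from the other genes called higher after their values were seen, had long and GC-rich exons. Over all 50 genes called higher the medians were 3072 exon bases and 55.9% GC, against 4745 bases and 47.6% over the genes tested. FASN (chr17:82078338-82098294), fatty acid synthase, went from 389, 370.1 and 397 CPM to 840.2, 997 and 1214 CPM (log2 fold change 1.40 ± 0.24 (SE), adjusted p = 0.00103). INTS1, a subunit of the Integrator complex, went from 238, 240.2 and 247 CPM to 534, 550.4 and 685 CPM (log2 fold change 1.29 ± 0.25 (SE), adjusted p = 0.00324). CAD, which starts pyrimidine synthesis, went from 77.2, 82.8 and 76.8 CPM to 154, 153 and 170.1 CPM (log2 fold change 1.01 ± 0.17 (SE), adjusted p = 0.00105). RK-33 replicate 3 was the highest library for all 3 genes, and their exon GC content was 65.2%, 64.7% and 57.04% against a median of 47.6% over the genes tested. With the GC trend removed their log2 fold changes were 1.13, 1.04 and 0.89. SCRIB, a cell polarity protein, was at 1.35 (adjusted p = 0.0132) and 1.06 with the trend removed, and without RK-33 replicate 3 its adjusted p was 0.0747. The GC trend moved with these rises, and removing it made each of the 4 smaller while their adjusted p stayed under 0.05.

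Of the DEAD and DEAH box helicases, the family of DDX3, 9 rose and 0 fell of 45 tested, or 16 and 0 with the GC trend removed, and 3 to 6 and 0 to 0 with 1 of the 6 libraries left out. None was called. DHX9, an RNA helicase that resolves structured and double-stranded RNA, went from 124, 120.3 and 123 CPM to 212, 221 and 215 CPM (log2 fold change 0.82 ± 0.12 (SE), adjusted p = 2.14e-04). Of the aminoacyl-tRNA synthetases, which charge tRNAs, 6 rose and 0 fell of 34 tested, or 10 and 0 with the GC trend removed, and 4 to 7 and 0 to 0 with 1 of the 6 libraries left out. AARS1, the alanyl enzyme, was at 0.76 (adjusted p = 6.28e-04) and TARS1, the threonyl enzyme, at 0.57 (adjusted p = 0.00289). Of the mitosis and spindle genes 6 rose and 0 fell of 35 tested, or 14 and 0 with the GC trend removed, and 4 to 7 and 0 to 0 with 1 of the 6 libraries left out. ESPL1, the protease separase, was at 0.82 (adjusted p = 5.71e-04) and KIF20A, a kinesin of cytokinesis, at 0.89 (adjusted p = 0.00148). These changes were under 2-fold throughout.

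The genes called lower included many of secreted, ER and membrane proteins. NUCB2 (chr11:17208153-17349980), a secreted calcium-binding protein, was at 219, 218 and 194 CPM in Ctrl and 95.1, 109 and 94.6 CPM in RK-33 (log2 fold change -1.08 ± 0.16 (SE), adjusted p = 2.83e-04). MFAP5, a microfibril protein of the matrix, was at 166, 181 and 174 CPM and 86.2, 86.6 and 77.5 CPM (log2 fold change -1.06 ± 0.18 (SE), adjusted p = 0.00103). CRISPLD1, a secreted protein, had the smallest adjusted p of the genes called lower, at 41.6, 38.6 and 36.3 CPM and 19.97, 20.6 and 14.5 CPM (log2 fold change -1.08 ± 0.15 (SE), adjusted p = 1.39e-04). The highest RK-33 library was below the lowest Ctrl library in each. EMP1 (chr12:13196723-13219941), a membrane protein of the PMP22 family and the most abundant of the genes called lower, was at 616, 641 and 576 CPM and 327, 313 and 272 CPM (log2 fold change -1.01 ± 0.19 (SE), adjusted p = 0.00243). TFPI (chr2:187464230-187565760), an inhibitor of blood coagulation, was at 268, 250.4 and 255 CPM and 129, 119 and 85.9 CPM (log2 fold change -1.21 ± 0.28 (SE), adjusted p = 0.0101), and its adjusted p without RK-33 replicate 3 was 0.0810. Its locus overlaps CALCRL-AS1 on the other strand. PTN, a secreted growth factor, was at -1.07 (adjusted p = 0.00108). The lipid enzymes of the ER membrane ELOVL4, ELOVL5 and ELOVL7, which elongate fatty acids, were at -1.01 (adjusted p = 4.71e-04), -1.04 (adjusted p = 0.0142) and -1.02 (adjusted p = 0.0186). SC5D, an enzyme of cholesterol synthesis, went from 68.8, 63.7 and 60.1 CPM to 33.8, 32.2 and 23.7 CPM (log2 fold change -1.10 ± 0.24 (SE), adjusted p = 0.00776). Without RK-33 replicate 3 the adjusted p of ELOVL5, ELOVL7 and SC5D was 0.0951, 0.108 and 0.0632. SLC16A7, a monocarboxylate carrier, was at -1.07 (adjusted p = 0.00998), SLC1A1, a glutamate carrier, at -1.01 (adjusted p = 0.00614), and LUM, a matrix proteoglycan, at -1.03 (adjusted p = 0.0177). Without that library the adjusted p of SLC16A7 was 0.0851 and that of LUM 0.104.

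The largest falls among genes of at least 1 CPM were in low genes. MASP2 (chr1:11026523-11047239), a complement protease, was at 6.05, 3.86 and 7.06 CPM in Ctrl and 1.24, 1.05 and 0.898 CPM in RK-33 (log2 fold change -2.39 ± 0.39 (SE), adjusted p = 7.49e-04), but its locus overlaps TARDBP on the other strand and the counting did not use strand. ENSG00000289067, ENSG00000283341, SPACA6-AS1 and ENSG00000288940 fell by 1.96, 1.84, 1.57 and 1.54 (log2), with adjusted p values of 0.0154, 0.00634, 0.00929 and 0.00677. Without RK-33 replicate 3 the adjusted p was 0.0793, 0.0344, 0.0712 and 0.0524, so ENSG00000283341 alone of these 4 still passed. Among the low genes called higher were ENSG00000289152, at 3.12 (adjusted p = 1.29e-04), and the pseudogene CBX3P4, at 3.00 (adjusted p = 9.84e-05), whose counts may belong to the parent gene.

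On lists of the secretory pathway many members fell, mostly by less than 2-fold. Of the genes of ER translocation and early secretory transport, 2 rose and 20 fell of 59 tested, with a median log2 fold change of -0.37. The counts were 2 and 25 with the GC trend removed, and 0 to 2 and 12 to 14 with 1 of the 6 libraries left out. SSR1, a subunit of the translocon-associated complex, went from 264, 261 and 255 CPM to 139, 137 and 129 CPM (log2 fold change -0.95 ± 0.16 (SE), adjusted p = 0.00115), and KDELR1, which returns ER proteins from the Golgi, from 257, 258 and 244 CPM to 131, 131 and 157 CPM (log2 fold change -0.86 ± 0.12 (SE), adjusted p = 1.85e-04). SEC11A, the catalytic subunit of signal peptidase, was at -0.73 (adjusted p = 2.27e-04). The 2 members that rose, COPG1 and COPA, are subunits of the COPI coat, which is a soluble cytosolic complex, and were at log2 fold changes of 0.51 (adjusted p = 0.00590) and 0.61 (adjusted p = 0.0120), with adjusted p values of 0.0541 and 0.0834 without Ctrl replicate 1 and, for COPA, 0.0698 without RK-33 replicate 3. Of the lysosomal proteins 0 rose and 13 fell of 26 tested, or 0 and 12 with the GC trend removed, and 0 to 0 and 7 to 11 with 1 of the 6 libraries left out. SCARB2, a lysosomal membrane receptor, went from 395, 369 and 355 CPM to 231, 208 and 195 CPM (log2 fold change -0.82 ± 0.10 (SE), adjusted p = 5.74e-05), and LIPA, the acid lipase, was at -0.86 (adjusted p = 0.00237). Of the integrins and surface receptors 0 rose and 7 fell of 30 tested, or 0 and 12 with the GC trend removed, and 0 to 0 and 3 to 5 with 1 of the 6 libraries left out, with CD9, a tetraspanin, at -0.68 (adjusted p = 0.00108) and ITGB8 at -0.80 (adjusted p = 0.00360). Of the solute carriers 0 rose and 42 fell of 266 tested, or 1 and 68 with the GC trend removed, and 0 to 0 and 21 to 36 with 1 of the 6 libraries left out, and SLC31A1, the copper importer, was at -0.92 (adjusted p = 2.14e-04) and SLC44A1, a choline carrier, at -0.87 (adjusted p = 1.42e-04). Of the genes named TMEM 0 rose and 29 fell of 175 tested, or 0 and 45 with the GC trend removed, and 0 to 0 and 18 to 23 with 1 of the 6 libraries left out, with TMEM33 at -0.80 (adjusted p = 1.07e-04) and the 1 called, TMEM144, at -1.20 (adjusted p = 0.0129), or 0.0865 without RK-33 replicate 3.

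The extracellular matrix and secreted list was mixed, since 4 rose and 8 fell of 39 tested, or 6 and 9 with the GC trend removed, and 1 to 2 and 4 to 6 with 1 of the 6 libraries left out. SPARC, a matrix glycoprotein, went from 2433, 2541 and 2482 CPM to 1594, 1721 and 1727 CPM (log2 fold change -0.56 ± 0.13 (SE), adjusted p = 0.0104), and SERPINA1, a protease inhibitor, was at -0.61 (adjusted p = 9.88e-04). By contrast FN1, fibronectin, went from 881, 883 and 792 CPM to 1433, 1426 and 1279 CPM (log2 fold change 0.70 ± 0.16 (SE), adjusted p = 0.0132) and HSPG2, perlecan, was at 0.83 (adjusted p = 0.00324). FN1 and HSPG2 are secreted too, so genes with a signal sequence did not all fall. The adjusted p of FN1 was 0.0815 without Ctrl replicate 3, and that of SPARC was 0.0513 without RK-33 replicate 1. Of the cholesterol synthesis genes 0 rose and 3 fell of 21 tested, or 0 and 1 without RK-33 replicate 3.

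What the fallen genes share was measured from the encoded proteins. For 13421 of the genes tested, the coding sequence of the canonical transcript was scored for a hydrophobic stretch, a window of 19 residues with a mean Kyte-Doolittle hydropathy of at least 1.6, as in a membrane-spanning segment. Of the 545 fallen genes with a coding sequence, 489 (89.7%) encoded such a stretch, against 66 of 342 that rose (19.3%) and 34.8% of all. A stretch that starts within the first 40 residues, where a signal sequence lies, was encoded by 295 of the fallen genes (54.1%), by 5 of the risen (1.46%) and by 14.98% of all. Of the genes called lower, 22 of 29 had a stretch, and of those called higher 5 of 35. Read the other way, 489 of 4675 genes with a stretch fell (10.5%) and 66 rose (1.41%), while 56 of 8746 coding genes without one fell (0.640%) and 276 rose (3.16%). The median log2 fold change was -0.13 with a stretch, -0.24 with one near the start and 0.06 without. With the GC trend removed, 727 genes with a stretch and 94 without fell, and without RK-33 replicate 3 237 and 19 did. These shares are descriptions over genes, which are not independent replicates, and were not tested.

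Fallen and risen genes also differed in GC content, with medians of 43.4% and 54.03% of exon bases. Over all genes tested, Spearman's rho of the log2 fold change with exon GC was 0.40, and 0.26 without RK-33 replicate 3. The genes were therefore split into 5 bins of equal size by GC. In the lowest bin, up to 40.95% GC, the median log2 fold change was -0.30 with a hydrophobic stretch and -0.12 without. In the highest bin, above 56.9% GC, it was 0.09 and 0.30. Both features moved with the change, and genes with a stretch had the lower median in each of the 5 bins. In the lowest bin 166 of 911 genes with a stretch fell and 22 of 1864 without. In the highest bin 25 of 1161 with a stretch fell, and 0 of 1819 without. Exon length was 6349 bases at the median of fallen genes, 5467 of risen genes and 4745 of all. No intron entry was present for 30% of the genes called higher, 6.50% of risen genes, 3.50% of fallen genes and 10.1% of all.

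**Figure D5:**
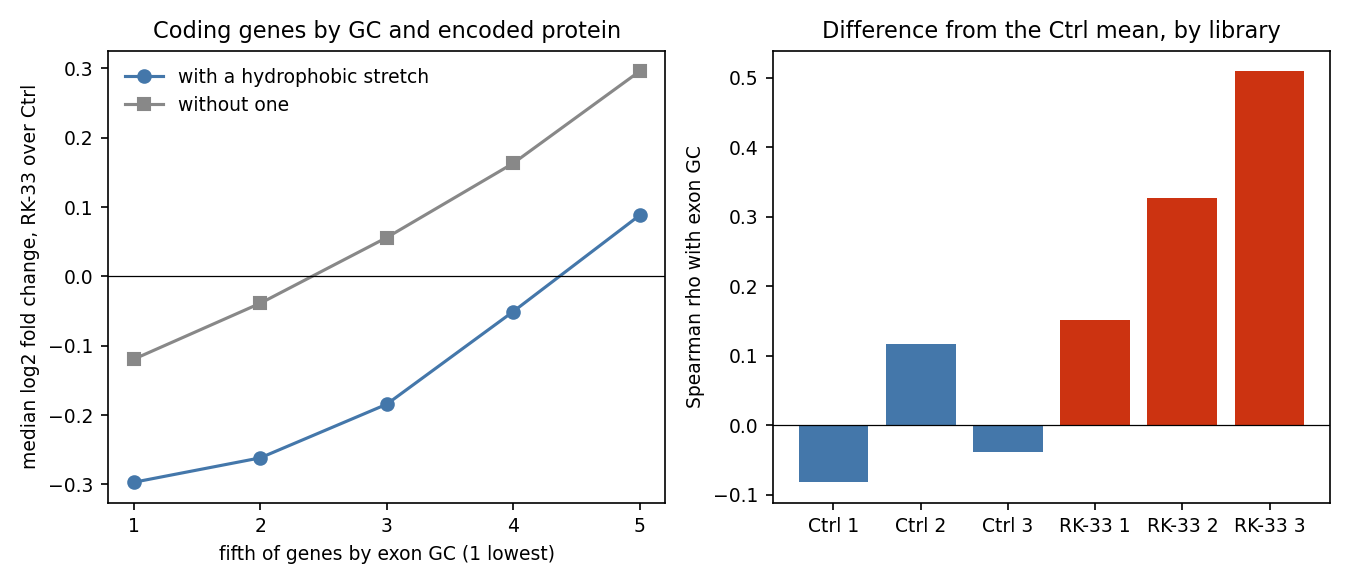
Left, median log2 fold change, RK-33 over Ctrl, of coding genes in 5 bins by exon GC content, with and without a hydrophobic stretch in the protein. The line with a stretch lies below the other in all 5 bins. Right, Spearman's rho between exon GC and the difference of each library from the Ctrl mean, which is highest in RK-33 replicate 3, at 0.51.

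Lists of RNP granule components and of housekeeping machinery had few members that passed. G3BP1, which nucleates stress granules, was at 371, 378 and 385 CPM in Ctrl and 357, 358 and 353 CPM in RK-33 (log2 fold change -0.09 ± 0.11 (SE), adjusted p = 0.732). NORAD, a noncoding RNA that binds Pumilio proteins, was at 298, 279 and 276 CPM and 253, 263 and 265 CPM (log2 fold change -0.12 ± 0.10 (SE), adjusted p = 0.585). The Ctrl and RK-33 libraries did not overlap for G3BP1 or NORAD, but neither passed the test. In the counts that follow, the first number rose and the second fell of those tested. They were 1 and 0 of 34 for stress granule proteins, 2 and 0 of 32 for P-body and decay proteins, 3 and 0 of 44 for translation factors, 0 and 0 of 83 for cytosolic ribosomal proteins, 0 and 0 of 77 for mitochondrial ribosomal proteins, 0 and 0 of 82 for nuclear genes of the respiratory chain and 0 and 0 of 31 for proteasome subunits. The 1 stress granule gene that rose was EIF4G1, the scaffold of the cap-binding complex, at 0.66 (adjusted p = 0.00290). They were 1 and 0 of 17 for glycolysis, 2 and 0 of 24 for tubulins, 2 and 0 of 14 for clock genes, 0 and 0 of 41 for replication-dependent histones, 1 and 0 of 19 for YAP and TGF-beta targets, 1 and 1 of 10 for Wnt targets, 0 and 0 of 3 for AhR targets and 0 and 0 of 5 for metallothioneins. Of noncoding RNAs they were 0 and 0 of 13 for nuclear and long noncoding RNAs, 4 and 4 of 333 for genes named LINC, 0 and 0 of 17 for snoRNA host genes and 1 and 0 of 6 for RNA polymerase III RNAs. Zinc finger genes named ZNF had 10 and 1 of 449, near the background of 2.09% that rose. Without RK-33 replicate 3 these counts dropped to 0 and 0 for P-body and decay proteins, glycolysis, tubulins and RNA polymerase III RNAs, to 1 and 0 for translation factors, clock genes and Wnt targets, to 1 and 1 for LINC genes and to 5 and 0 for ZNF genes, and were as before for the other lists of this paragraph. A gene that did not pass is not shown to be unchanged.

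The insoluble pellets of RK-33 and Ctrl cells, sequenced as libraries of their own, give the same treatment contrast in the other fraction. In that fraction 1008 genes rose (5.71%) and 1446 fell (8.19%). Of the 50 genes called higher in the soluble fraction, 30 rose in the insoluble fraction and 0 fell, and of the 41 called lower 17 fell and 0 rose. Of 22 heat shock genes 10 rose and 3 fell in the insoluble fraction, against 19 and 0 in the soluble fraction. Their median log2 fold changes were 0.43 and 0.68. Of 40 immediate early genes 21 rose and 1 fell in the insoluble fraction, against 24 and 0. HSPA6 was at log2 fold change 4.28 in the soluble fraction and 3.62 in the pellet, ATF3 at 1.76 and 2.07, and NUCB2 at -1.08 and -1.13. FASN was at 1.40 and -0.07. Of 59 genes of ER translocation and early secretory transport 0 rose and 30 fell in the pellet, and of 26 lysosomal proteins 0 and 26. Of genes with a hydrophobic stretch 167 rose and 776 fell there, and of coding genes without one 686 and 631. Median log2 fold changes in the pellet were -0.13 with a stretch and 0.02 without. The 2 contrasts were subtracted and tested in edgeR. At least a 2-fold difference between fractions with an adjusted p under 0.05 was found for 77 genes (0.436%), 64 with the larger log2 fold change in the soluble fraction and 13 with the smaller. This split depended on the scaling, being 28 and 24 with library size alone. With the lysate as a block, on the assumption that equal replicate numbers mark 1 lysate, the count was 195, split as 120 and 75. It dropped to between 33 and 51 when Ctrl soluble replicate 1 or 3, RK-33 soluble replicate 2 or 3, Ctrl insoluble replicate 3 or RK-33 insoluble replicate 3 was left out. At an unadjusted p under 0.05 there were 2466 genes.

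Among the genes that differed between fractions was COPG1. It was at 109 ± 8.81 CPM in Ctrl and 156 ± 16.02 CPM in RK-33 of the soluble fraction, and at 198 ± 12.4 and 118 ± 0.615 CPM of the insoluble fraction (SD, n = 3), so its mean was higher with RK-33 in the first and lower in the second. The difference between fractions was 1.26 ± 0.15 (log2, SE), with an adjusted p of 2.49e-04 in edgeR. TARS1 was at 1.27 (adjusted p = 2.49e-04). In the other direction were SHISAL1, at -1.14 (adjusted p = 0.0116), and PPP1R3B, a subunit of the phosphatase that controls glycogen, at -1.06 (adjusted p = 0.0221). DHX9 and FASN also passed, at 1.27 (adjusted p = 3.75e-04) and 1.47 (adjusted p = 0.0198). For INTS1 and CAD the difference was 1.06 (adjusted p = 0.130) and 0.87 (adjusted p = 0.0608), which did not pass. DHX9, FASN, INTS1 and CAD were named after their rise in the soluble fraction was seen, and those libraries also enter this difference.

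RK-33 was also given to cells before NaAsO2, and Combo against NaAsO2 in the soluble fraction shares no library with RK-33 against Ctrl. The study's methods state no DMSO for cells given NaAsO2 alone, so Combo and NaAsO2 may also differ in DMSO. There 846 genes rose (4.79%) and 295 fell (1.67%). On the stress lists, 15 rose and 0 fell of 22 heat shock genes, 19 and 1 of 40 immediate early genes, 6 and 0 of 22 ATF4 targets, 3 and 0 of 25 p53 targets and 4 and 0 of 16 NF-kB genes. Of the 50 genes called higher without NaAsO2, 34 rose and 0 fell in Combo against NaAsO2. HSPA6 was at log2 fold change 5.61 (adjusted p = 3.24e-11), from 4.48 ± 0.630 to 220.1 ± 23.6 CPM (SD, n = 3). HSPA1A was at 3.75 (adjusted p = 1.42e-10), ATF3 at 2.31 (adjusted p = 2.52e-12) and FOS at 2.08 (adjusted p = 7.80e-10). HSPA1B was at 3.75 and DNAJB1 at 2.03. The study reported the opposite direction, with ATF3, DNAJB1, HSPA6 and HSPA1B lower in Combo than in NaAsO2. Its comparison of these treatments combined both fractions and was scaled to spike-in RNA, unlike here. Whether this accounts for the direction was not tested. For the lower genes the counts were smaller. Of the 41 genes called lower, 1 fell and 0 rose, with 27 of the 41 below 0 and a median of -0.21 against -0.04 over all genes. EMP1 was at 0.10 and TFPI at -0.17. Of all genes that fell, 42 of 572 fell and 8 rose. Of 59 genes of ER translocation and early secretory transport 0 rose and 3 fell, and of 26 lysosomal proteins 0 and 3. Of genes with a hydrophobic stretch 173 rose and 73 fell in Combo against NaAsO2, and of coding genes without one 347 and 204. Median log2 fold changes were -0.05 with a stretch and -0.10 without, so the lower median of genes with a stretch was not seen there. FASN was at 0.24 (adjusted p = 0.585) and CAD at 0.01 (adjusted p = 0.979). Spearman's rho of the log2 fold change with exon GC was -0.00189 there, against 0.40 without NaAsO2.

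The RK-33 effect without NaAsO2 was then tested against that with it. A difference of at least 2-fold passed for 169 genes (0.957%), 7 with the larger log2 fold change without NaAsO2 and 162 with the smaller. Between 77 and 111 passed when Ctrl replicate 1 or 3, RK-33 replicate 2 or 3, NaAsO2 replicate 3 or Combo replicate 3 was left out. FOSB, an AP-1 subunit, was at 7.202 ± 0.748 CPM in Ctrl and 8.42 ± 1.68 CPM in RK-33, against 16.2 ± 3.499 CPM in NaAsO2 and 101 ± 17.2 CPM in Combo (SD, n = 3), an interaction of -2.41 (adjusted p = 5.37e-04). CECR2, a bromodomain protein, was at -1.71 (adjusted p = 5.23e-05) and TENT5C, a poly(A) polymerase, at -1.55 (adjusted p = 1.88e-04). In the other direction RCAN1, an inhibitor of calcineurin, was at 1.12 (adjusted p = 0.00131), XAB2 at 1.11 (adjusted p = 0.00847) and KLF10 at 1.28 (adjusted p = 0.0135). Of the named heat shock genes DNAJA4 passed, at -1.56 (adjusted p = 6.98e-04), while HSPA6 was at -1.33 (adjusted p = 0.186) and HSPA1A at -0.05 (adjusted p = 0.951). Of the 41 genes called lower, 6 passed, among them EMP1, ELOVL4 and SC5D. The libraries that picked these 41 genes also enter this difference, which favours values below 0, and all 41 were below 0. The count is therefore a description.

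Neither bulk measure of unspliced or circular RNA separated the groups. The intron share of exon plus intron counts was 22.3, 17.7 and 21.8% in the Ctrl libraries and 22.6, 17.8 and 13.3% in the RK-33 libraries, a mean of 20.6% ± 2.53 and 17.9% ± 4.64 (SD, n = 3). The groups overlapped, and an exact two-sided permutation test gave p = 0.7 (adjusted over 2 measures 0.7). The smallest p that 3 libraries against 3 allow is 0.1. Reads across back-splice junctions, the mark of circRNAs, were 731 to 1233 per library, or 1.29, 1.82 and 1.44% of back-spliced plus linear reads at the same sites in Ctrl and 1.45, 1.75 and 1.73% in RK-33. The groups overlapped here as well, with means of 1.51% ± 0.274 and 1.65% ± 0.167 (SD, n = 3, exact permutation p = 0.6, adjusted 0.7).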

How the data were processed

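The 6 libraries are 3 RK-33 and 3 Ctrl soluble fractions of U2OS cells, among 24 libraries in 8 groups. The authors aligned reads of rRNA-depleted, directional 150-base libraries with STAR 2.7.2b to GRCh38.p13 with GENCODE 40 and deposited featureCounts 1.5.3 counts per gene name, for exons and, with a minimum overlap of 25 bases and exons removed, for introns, without use of strand. The deposited circRNA and linear counts cover 394 back-splice sites. No fold change or p-value of the authors was used. Mitochondrial genes are at 0 in every library.

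Counts were fitted with edgeR 4.0.16 (R 4.3.3; glmQLFit and glmQLFTest, TMM factors, a filter at a mean of 1 CPM) on all 24 libraries, which share 1 estimate of spread. Adjusted p values are edgeR's, with Benjamini-Hochberg adjustment over all genes or introns tested. The SE of a log2 fold change was derived from the test, as its absolute value divided by the square root of the F statistic. Called means an adjusted p under 0.05 and at least a 2-fold change. The intron table was fitted alone. Shares were compared by exact two-sided permutation tests (scipy 1.17.1). The scripts were tested on simulated counts. Alternatives were DESeq2 1.42.0, the likelihood ratio test, RLE factors, library size alone, other filters and subsets, a replicate block, and each library left out. Removal of each library's GC trend (lowess, span 0.3) was chosen after seeing the data.

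Members and lists were chosen with earlier results of these data known. Genes named are the 10 with the smallest adjusted p in each direction at 10 CPM or more, the 5 with the largest change without overlap at 1 CPM or more, called list members, 2 to 4 examples of a list, DDX3X and genes of interest to the study, and for introns and differences the 3 with the smallest adjusted p in each direction. Further genes were named after their values were seen: FASN, INTS1, CAD, SCRIB, HSPA8, HSP90AB1, HSPA4, HSPB8, HSPA1L, STIP1, CRYAB, MYC, MCL1, SLC7A11, DHX9, AARS1, ESPL1, KIF20A, EIF4G1, ELOVL7, LUM, FN1, HSPG2, SPARC and SERPINA1, exons of HSPH1, introns of DNAJB6, TCP1 and CLU, and all examples from the lists of the secretory pathway other than called genes. Some results are not reported here. Protein features came from GENCODE 44 coding sequences in place of a protein table, matched by name to 13421 of 17666 genes tested, and promoters from RefSeq on GRCh38.p14 for 11789. Gene coordinates are GRCh38. Matching by name joins copies of a gene on several loci, and 23 tested genes had more than 1 chromosome or strand.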

Additional observations from a re-analysis of the deposited data

Results flagged for a closer look

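For 77 genes the RK-33 effect differed between the soluble and insoluble fractions by at least 2-fold in edgeR's test of the difference. Among the genes named, the log2 difference, soluble minus insoluble, was 1.61 for HSPG2, 1.39 for EEF2, an elongation factor, 1.33 for FN1, 1.27 for DHX9 and for TARS1, 1.26 for COPG1 and 1.47 for FASN. It was 1.1 for CLU, 1.08 for STIP1, 1.06 for SERPINA1 and HSP90AB1 and 1.03 for EEF1A1. SHISAL1, at -1.14, and PPP1R3B, at -1.06, differed the other way.

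For 169 genes the effect of RK-33 in the soluble fraction differed with and without NaAsO2. The log2 difference, without minus with NaAsO2, was below 0 for ENSG00000289067 (-2.87), FOSB (-2.41), CECR2 (-1.71), DNAJA4 (-1.56), TENT5C (-1.55), SC5D (-1.31), SLC7A11 (-1.24), NFKBIZ (-1.16), ELOVL4 (-1.12), EMP1 (-1.11) and ITGB8 (-1.09). It was above 0 for KLF10 (1.28), RCAN1 (1.12) and XAB2 (1.11). With 3 libraries a group, no library was tested as an outlier of its group.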

How the results depend on the processing

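Of 103 named genes that passed, 1674 of 1834 values under the alternatives also passed in the same direction, 160 no longer passed and 0 changed direction. In place of 91 genes, 44 were called at a mean of 10 CPM or more (30 of the 50 higher and 12 of the 41 lower among them) and 150 with the 12 soluble libraries alone, while 941 passed with no fold limit and 544 with a 1.5-fold limit. Library size alone split the calls as 41 higher and 62 lower, and exon plus intron counts as 69 and 21. Leaving out 1 library gave 44, without RK-33 replicate 3, to 121. The 77 genes that differed between fractions were 130 without a filter, 50 at 10 CPM or more, 386 with no fold limit and 33 to 103 with 1 library left out. Combo against NaAsO2 gave 430 genes, 117 at 10 CPM or more, 1141 with no fold limit, and 284, without Combo replicate 3, to 523 with 1 library left out. The 169 genes that differed with NaAsO2 were 321 with library size alone, 293 without a filter, 328 with the likelihood ratio test, 289 with DESeq2, 297 with the GC trend removed, 369 with no fold limit, and 77 to 244 with 1 library left out. The 116 introns called were 49 with the factors of the exon table and 70 to 103 with 1 library left out. The difference in intron share ranged from -5.06 to -0.418 percentage points and the log2 ratio of circRNA content from 0.022 to 0.271 with 1 library left out, and the latter was -0.0229 with exon plus intron counts as denominator. Why these counts moved was not tested.

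For soluble libraries with equal replicate numbers, deviations of Ctrl and RK-33 from their group means correlated at 0.20, -0.02 and -0.09 over genes. Each deviation is from a mean of 3 libraries that includes it, and RK-33 replicate 3 stood apart. These correlations therefore cannot tell whether equal numbers mark matched experiments. With the number as a replicate block, 98, 78, 437, 175 and 109 were called in place of 91, 77, 430, 169 and 116. Taking each lysate as a replicate block gave 195 genes that differed between fractions. Deviations of the fractions with equal numbers correlated at -0.04 to 0.11, which does not settle the pairing either. The study's methods used a paired test between the fractions of a treatment. With 3 libraries a group and low counts in many genes, a gene that did not pass is not shown to be unchanged.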
